A study of Mus musculus with 96 samples.

Results

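The 64 genes described here encode axon guidance ligands and receptors. They are the protein-coding genes of the GENCODE M21 annotation whose symbols mark them as semaphorins, plexins, Eph receptors, ephrins, Slits, Robos or netrins, together with the netrin receptor gene Dcc and the neuropilin genes Nrp1 and Nrp2. Of 65 genes that meet this rule, 64 were among the 19918 genes counted, and Ntn3 was not analysed here. The rule used symbols and no measured value, although it was set with earlier results of these data known. By family there were 13 membrane-bound and 7 secreted semaphorins, 9 plexins, 2 neuropilins, 9 EphA and 5 EphB receptors, 5 ephrin-A and 3 ephrin-B ligands, 3 Slits, 4 Robos, and 3 netrins with Dcc.

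RNA was sequenced in bulk from tissue punches of 2 brain regions of 48 mice, the nucleus accumbens (NAc) and the prefrontal cortex (PFC). The mice came from the FCG model, which separates chromosomes from gonads. In this model Sry, the testis-determining gene, is missing from the Y chromosome (written Y-) and supplied by a transgene in the animals named Sry. XX and XY- mice have ovaries, and XXSry and XY-Sry mice have testes, so the comparison of gonads also compares carriers of the transgene with non-carriers. All XY animals carry the Y- chromosome. Unstressed controls were compared with mice given subchronic variable stress, 3 restraint sessions of 1 h on alternating days over 6 days. The control groups held 5 XX, 6 XXSry, 7 XY- and 6 XY-Sry animals and each stressed group held 6, from 3 cohorts. Cohorts were unevenly spread over treatments. Cohort 3 held 3 stressed XX animals and 1 stressed XXSry animal but no control of these genotypes. Cohort 2 held 2 XXSry controls and no stressed XXSry animal, and 4 XY-Sry controls with 1 stressed. The fits had cohort as a term, whereas CPM means and ranges are not adjusted for it. In the widely used C57BL/6J strain of this model, the Y- chromosome is known to hold X-linked genes moved there by a translocation. No ages are stated in the labels used here. The comparisons ask how region, stress, chromosome complement (XX against XY) and gonads relate to expression.

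Axon guidance molecules steer growing axons by attraction and repulsion. Netrins act through Dcc, Slits through Robos, ephrins through Eph receptor tyrosine kinases, with signalling in both directions between the touching cells, and semaphorins through plexins, with neuropilins as co-receptors for most secreted class 3 semaphorins. In the adult brain many of these genes stay expressed, and they are known for roles in dendritic spines, synapse maintenance, myelination and vessels.

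Libraries held 67.6 to 104.4 M counts in the PFC (mean 83.0 ± 8.48 M, SD, n = 48) and 45.9 to 120.8 M in the NAc (75.4 ± 12.6 M, SD, n = 48). Xist and Y-linked genes matched the chromosome label in all 48 libraries of each region. The regions carried their defining markers. Summed over 9 genes, markers of striatal medium spiny neurons, the main neurons of the NAc, ranged from 2068 to 5982 CPM (counts per 1 M counts) in the NAc and from 199.5 to 327.4 in the PFC. Summed over 8 genes, markers of cortical excitatory neurons ranged from 2048 to 2495 CPM in the PFC and from 74.3 to 1005 in the NAc. Extreme values gathered in a few libraries. Of the 60 members with a mean of at least 1 CPM, the PFC library of XY- control animal 16 held the lowest value of the region in 15 and the highest in 0. The NAc library of XY- stressed animal 32 held the highest value in 14 and the lowest in 0. The NAc library of stressed XY-Sry animal 7 was extreme in both directions, with the lowest value in 7 and the highest in 9, and that of stressed XY-Sry animal 23 held 8 lowest and 4 highest values. In the NAc library of animal 32 the cortical neuron markers summed to 859.7 CPM against a median of 436.3 in the other 47, and the medium spiny neuron markers to 2814 against 4034. In the PFC library of animal 16 the astrocyte markers (4064 CPM, others 4324 to 5789) and the oligodendrocyte precursor markers (108.5, others 119.9 to 158.0) lay below all other PFC libraries. Whether cell content bears on the members' values there was not tested. Results that rest on a single library are given with and without it.

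Levels compared between genes are CPM per kb of exon. In the PFC, the most abundant member was Ephb6, an Eph receptor without kinase activity, at 47.4 ± 3.91 CPM per kb (SD, n = 48). It was followed by Epha4, the EphA receptor that binds both ephrin classes, at 45.9 ± 2.33, and these neighbours did not differ beyond their spread. Sema7a, a semaphorin anchored to the membrane by a lipid, followed at 36.4 ± 3.42, Sema6b at 24.7 ± 1.60, Efna3 at 22 ± 1.66 and Plxna1 at 20.7 ± 1.63. The last pair also lay within their spread. In the NAc the order was different. Efnb3, the ephrin known as a midline barrier to corticospinal axons, led at 51.4 ± 5.52 CPM per kb, above Epha4 at 23.9 ± 2.70 and Efnb2 at 16.9 ± 1.78. Plxnc1, Plxna2 and Sema6b followed at 14.6 ± 1.71, 13.6 ± 0.938 and 12.9 ± 1.99, each within the spread of its neighbour. The lowest member of both regions was Epha1, at 0.0141 ± 0.00936 in the PFC and 0.0380 ± 0.0242 in the NAc. Its counts did not pass the low-count filter of the PFC fit. Mean levels lay below 1 CPM per kb for 9 members in the PFC and 14 in the NAc.

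Within families the highest level in the PFC belonged to Epha4, Ephb6, Robo2, Slit1, Efna3, Efnb3, Sema7a, Ntn4, Nrp1, Plxna1 and Sema3c, and the lowest to Epha1, Ephb4, Robo4, Slit2, Efna4, Efnb1, Sema6c, Ntn5, Nrp2, Plxnb3 and Sema3b. In the NAc the leading member changed in 6 of the 11 families. Robo1, Sema6b, Ntn1, Nrp2, Plxnc1 and Sema3e led there, and the lowest members differed in 3 families, with Ephb2, Robo3 and Nrp1 at the bottom. Of the leaders, Robo1, Nrp2 and Plxnc1 lay within the spread of the next member of their family. At the bottom, so did Ephb2 and Nrp1. These orders are descriptions with no test.

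**Figure D1:**
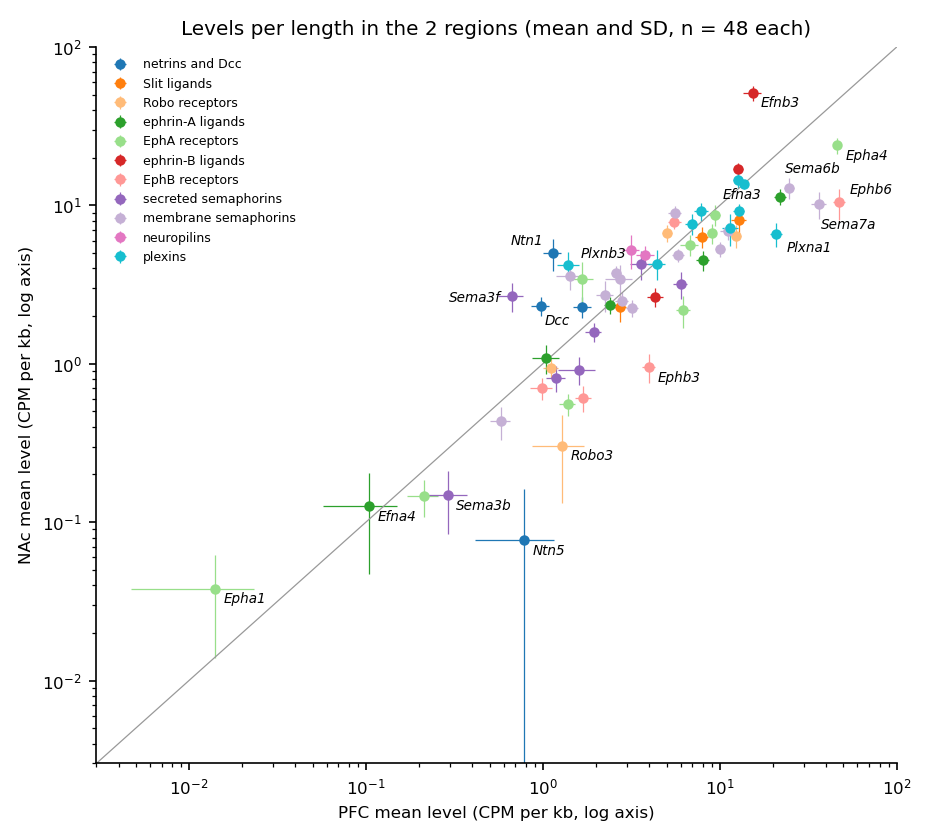
Mean level of each of the 64 members in the PFC (x axis) and the NAc (y axis), in CPM per kb on log axes, coloured by family. Bars are the SD over 48 libraries, a bar that passes 0 ends at the axis, and the line marks equal levels. Efnb3 and Ntn1 lie above the line, and Ephb6, Ephb3 and Sema7a below it.

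Nearly all members differed between the NAc and the PFC of the same animals. In the edgeR quasi-likelihood fit, 59 of 64 members were called (92.2%), against 85.9% of all 19918 genes, so the share is near that of the whole table. Lower in the NAc were 37 members, where 41.9% of all genes were called lower, and higher were 22, where 44% of all genes were called higher. Of the members, 17 (26.6%) were called with at least a 2-fold difference, 9 lower and 8 higher, against 20.3% of all genes (9.39% lower and 10.9% higher). For 20 members (31.2%) the 48 NAc values did not overlap the 48 PFC values, 13 lower and 7 higher, against 16.4% of all genes. The median log2 fold change (NAc minus PFC) was -0.27 over the members and 0.02 over all genes. Efna1, Efna2, Efna4, Plxna2 and Plxna3 were not called. In bulk tissue, fewer cells of a type and less RNA per cell cannot be told apart.

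**Figure D2:**
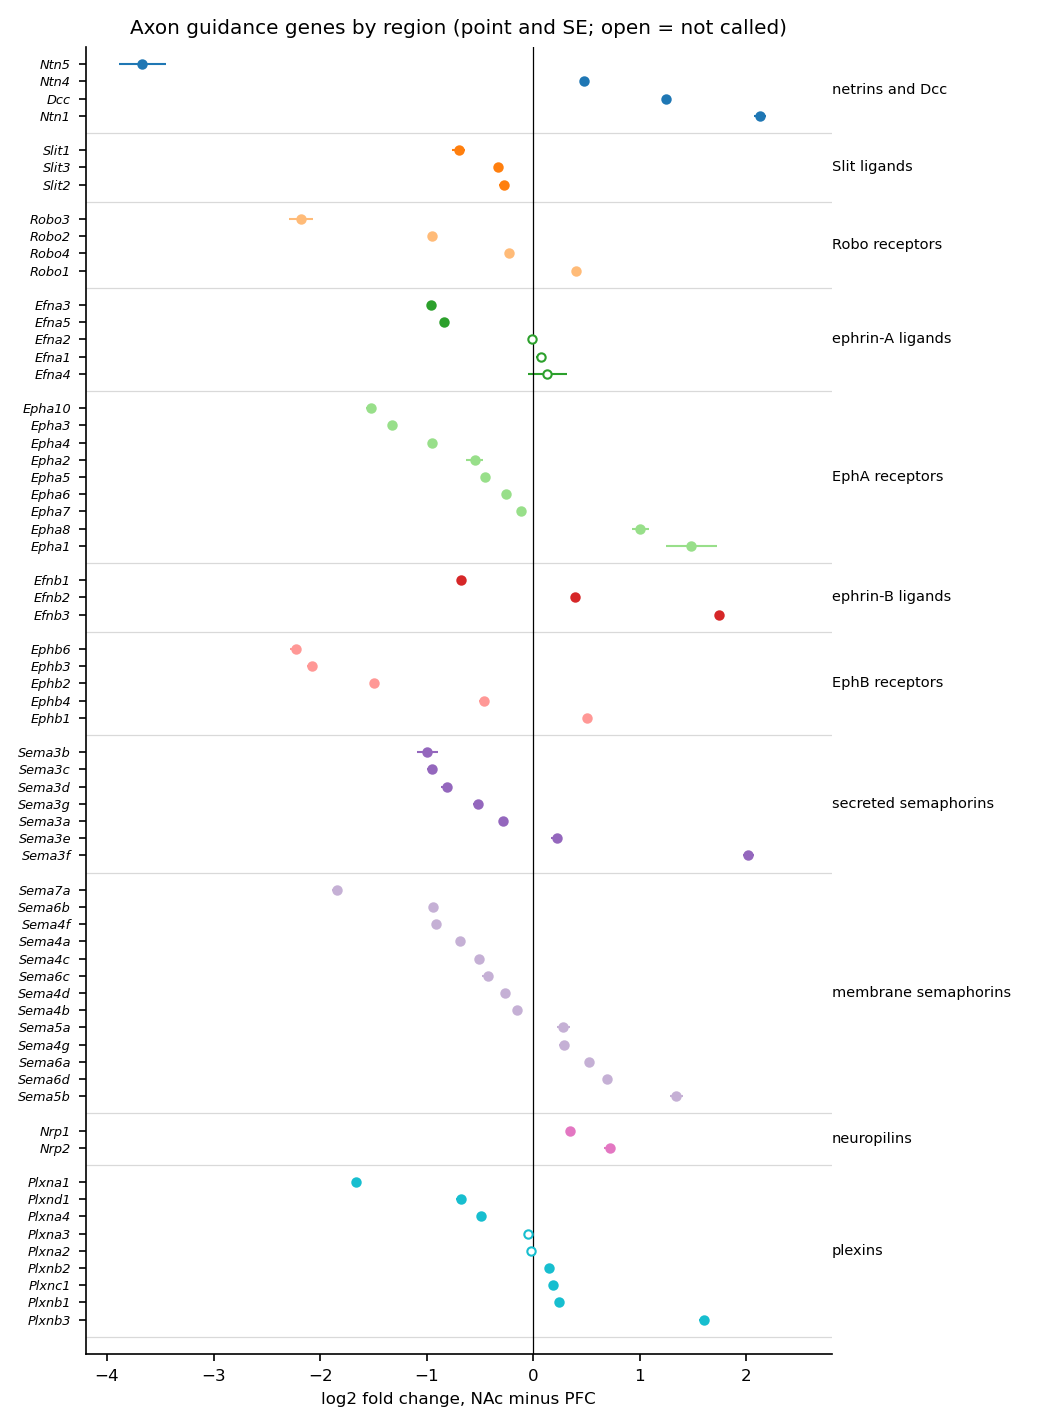
Log2 fold change between regions (NAc minus PFC, x axis) for each member, grouped by family; bars are the SE and open circles were not called. Slits all lie below 0, and Ntn1, Sema3f, Efnb3 and Plxnb3 lie furthest above 0.

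Netrin genes and their receptor were higher in the NAc, apart from Ntn5. The ligand Ntn1 (chr11:68209364-68400823 in GRCm38) ranged from 5.39 to 8.76 CPM in the PFC (median 7.10, n = 48) and from 15.1 to 48.0 CPM in the NAc (median 30.9, n = 48). Every NAc library lay above every PFC library. The difference was 2.13 on the log2 scale (SE 0.0571, edgeR adjusted p = 2.78e-32), a 4.37-fold rise. The receptor Dcc rose with it, with 7.62 to 15.6 CPM in the PFC (median 12.9) and 17.1 to 39.3 in the NAc (median 30.7), by 1.25 on the log2 scale (SE 0.0285). Its ranges did not overlap either. Ntn4, a netrin of basement membranes, rose by 0.47 (SE 0.0296) and was higher in the NAc in 47 of 48 animals. Ntn5 went the other way, with 1.74 ± 0.822 CPM in the PFC and 0.171 ± 0.191 in the NAc (SD, n = 48 each), lower in 48 of 48 animals. Ntn5 is 1 of 12 members whose gene body overlaps a measured gene on the opposite strand, beside Epha1, Epha5, Epha6, Epha7, Ephb4, Efna3, Sema4c, Sema5b, Nrp2, Plxna4 and Plxnb1. Without a stated strand setting, reads of a member and of such a partner cannot be told apart where they overlap.

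Of the Slit and Robo system, 6 of 7 members were lower in the NAc. All 3 Slit ligands fell, Slit1 by 0.70 on the log2 scale (SE 0.0597), Slit3 by 0.33 (SE 0.0396) and Slit2 by 0.28 (SE 0.0457). Slit1 was lower in 47 of 48 animals. Among the receptors, Robo3, known from commissural axons, had 8.80 ± 2.88 CPM in the PFC and 2.08 ± 1.18 in the NAc (SD, n = 48 each). Its difference of -2.18 (SE 0.115, edgeR adjusted p = 4.77e-21) was the lowest of the Robos, although its ranges overlapped. Robo2 fell from 209.8 ± 13.5 to 109.5 ± 18.7 CPM, and its NAc values stayed below its PFC values. Robo1 was the exception, with 83.2 ± 5.39 CPM in the PFC and 110.9 ± 13.7 in the NAc, higher in 47 of 48 animals (log2 fold change 0.40, SE 0.0225). Robo4, a Robo of blood vessels, fell by 0.23 (SE 0.0376).

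The ephrin-B ligands and their EphB receptors differed in opposite directions as sums. Summed per kb, the 3 ephrin-B genes went from 32.4 CPM per kb (PFC) to 71.0 (NAc), whereas the 5 EphB genes went from 59.6 to 20.6. Most of each change lay in 1 gene. Efnb3 went from 15.37 to 51.45 CPM per kb and Ephb6 from 47.42 to 10.44, so the sums do not describe the families as a whole. Efnb3 (chr11:69554092-69560205 in GRCm38) ranged from 35.5 to 61.9 CPM in the PFC (median 49.4, n = 48) and from 126.1 to 206.5 CPM in the NAc (median 164.3, n = 48), with no overlap. Its rise of 1.74 (SE 0.0284, edgeR adjusted p = 3.27e-42) had the smallest p of all members in this comparison. Efnb2, the ephrin of arteries and of synapses, rose by 0.39 (SE 0.0249), and Efnb1, on the X chromosome, fell by 0.68 (SE 0.0360).

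Among the EphB receptors, 4 of 5 were lower in the NAc. Ephb6 (chr6:41605482-41620509 in GRCm38) ranged from 145.0 to 208.7 CPM in the PFC (median 181.8, n = 48) and from 24.6 to 66.0 CPM in the NAc (median 36.7, n = 48). The ranges stood far apart, and the difference on the log2 scale was -2.23 (SE 0.0544, edgeR adjusted p = 3.44e-33). Ephb3 fell by 2.08 (SE 0.0436), from 26.4 ± 2.31 to 6.34 ± 1.28 CPM, and Ephb2, a receptor that clusters NMDA receptors at synapses, by 1.49 (SE 0.0398). Ephb1 alone rose, by 0.50 (SE 0.0237), and did so in 48 of 48 animals.

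On the A side, ligands and receptors were mostly lower in the NAc. Efna3 fell by 0.96 (SE 0.0287), from 53.6 ± 4.04 to 27.5 ± 3.20 CPM, and Efna5, a repellent of topographic maps, by 0.84 (SE 0.0378). The other three, Efna1, Efna2 and Efna4, had log2 fold changes between -0.01 and 0.13 and were not called. Of 9 EphA receptors, 7 fell. Epha10, which like Ephb6 lacks kinase activity, fell most, by 1.53 (SE 0.0428), from 44.9 ± 4.03 to 15.7 ± 3.56 CPM. Epha3 and Epha4 followed with -1.33 (SE 0.0340) and -0.95 (SE 0.0207), all 3 without overlap between regions. Epha8 rose by 1.00 (SE 0.0784) and was higher in 47 of 48 animals. Epha1 also rose but had means of 0.0552 and 0.149 CPM, too few reads for a firm size.

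Secreted semaphorins were lower in the NAc in 5 of 7 cases. Sema3f, the ligand of neuropilin-2, went furthest the other way. It ranged from 2.33 to 4.86 CPM in the PFC (median 3.45, n = 48) and from 8.62 to 20.8 CPM in the NAc (median 13.7, n = 48), without overlap. The difference on the log2 scale was 2.02 (SE 0.0518, edgeR adjusted p = 2.32e-34). Its receptor Nrp2 rose by 0.72 (SE 0.0520) and Nrp1, which binds Sema3a, by 0.34 (SE 0.0314), each in 48 of 48 animals. The ligand Sema3a fell by 0.29 (SE 0.0349), and Sema3b fell by 0.99.

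Membrane-bound semaphorins split into 8 that were lower and 5 that were higher in the NAc. Sema7a (chr9:57940112-57962865 in GRCm38) ranged from 102.5 to 155.7 CPM in the PFC (median 119.7, n = 48) and from 22.5 to 52.1 in the NAc (median 33.6, n = 48). Its fall of 1.84 on the log2 scale (SE 0.0423, edgeR adjusted p = 4.71e-35) left no overlap. Its receptor Plxnc1 rose by 0.19 (SE 0.0217). Class 4 went down in 5 of 6 members, with Sema4f at -0.92 (SE 0.0254) and Sema4g, the exception, at 0.29 (SE 0.0462). Class 5 went up in both members, with Sema5b at 1.34 (SE 0.0592). Of class 6, Sema6a (0.52, SE 0.0263) and Sema6d (0.69, SE 0.0183) rose and Sema6b (-0.94, SE 0.0369) and Sema6c (-0.43, SE 0.0514) fell.

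Plexins, the semaphorin receptors, spread over both directions with 4 higher, 3 lower and 2 not called. Plxna1 (chr6:89316314-89362620 in GRCm38) ranged from 152.1 to 215.5 CPM in the PFC (median 186.6, n = 48) and from 42.6 to 86.9 in the NAc (median 60.3, n = 48), a fall of 1.66 (SE 0.0357, edgeR adjusted p = 9.89e-37). Its close relatives did not share that size, since Plxna4 fell by 0.49 (SE 0.0244) and Plxna2 had 236.2 ± 11.6 CPM in the PFC and 233.6 ± 16.1 in the NAc. The interval of the Plxna2 difference ran from -0.06 to 0.02 (95% confidence). Plxnb3, a receptor of Sema5a that is known from oligodendrocytes, rose by 1.60 (SE 0.0482), from 9.07 ± 1.28 to 27.4 ± 5.37 CPM. Plxnd1, the receptor of Sema3e, fell by 0.68 (SE 0.0477).

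**Figure D3:**
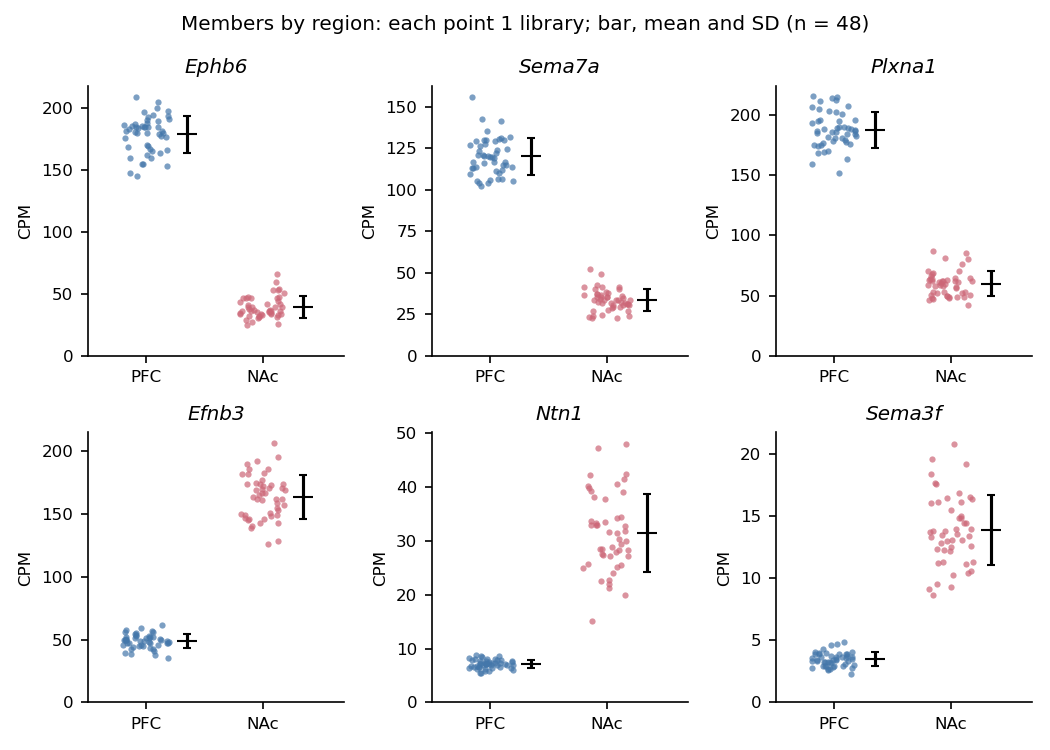
CPM of 6 members in each of 48 PFC and 48 NAc libraries (points), with mean and SD. For Ephb6, Sema7a and Plxna1 all NAc points lie below all PFC points, and for Efnb3, Ntn1 and Sema3f all lie above.

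Other genes of these pathways, from 4 lists of partners and effectors, also differed by region. Of the 14 netrin partners, 5 were higher and 9 lower in the NAc. Draxin, a secreted Dcc ligand, was highest among those named, at 3.75 (SE 0.117), and Lrrc4, a synaptic partner of netrin-G2, stood at -0.94 (SE 0.0186). Of 18 semaphorin co-receptors and effectors, 3 were higher and 14 lower, among them Gipc1, a scaffold that binds neuropilin-1, at -1.29 (SE 0.0341). Of 16 Slit and Robo partners and effectors, 7 were higher and 8 lower, with the GTPase-activating genes Srgap1 at 1.56 (SE 0.0306) and Srgap3 at -0.74 (SE 0.0162). Of 16 Eph and ephrin effectors, 5 were higher and 11 lower, with the exchange factor genes Kalrn at -1.36 (SE 0.0292) and Tiam1 at 0.56 (SE 0.0193). Median log2 fold changes of the 4 lists were -0.18, -0.38, -0.03 and -0.17.

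Cell type markers moved with region as well. Cortical excitatory neuron markers were lower in the NAc for 8 of 8 genes (median log2 fold change -2.60), and medium spiny neuron markers higher for 9 of 9 (4.63). Oligodendrocyte markers were higher for 8 of 8 (2.33), with a summed level of 3584 to 7816 CPM in the NAc and 706.6 to 1691 in the PFC. Markers of meningeal and perivascular fibroblasts were lower for 8 of 8 (-1.87), at 10.7 to 26.3 CPM in the NAc and 30.5 to 128.3 in the PFC, and ependymal and choroid plexus markers higher for 6 of 6 (2.02), at 11.7 to 45.6 and 2.75 to 8.60 CPM. General neuron markers summed to 2973 to 4821 CPM in the NAc and 6709 to 8278 in the PFC, with Snap25 at -1.17. The list of inhibitory interneuron markers, which includes Gad1 and Gad2, summed to 1322 to 2083 CPM in the NAc and 704.3 to 886.4 in the PFC. Its 3 called genes with the smallest p were Gad2 (2.14), Gad1 (1.06) and Vip (-2.79). They did not share a direction, so the sum is no measure of interneuron number. Summed levels of astrocyte, oligodendrocyte precursor, microglia, endothelium, mural cell and blood markers overlapped between regions. No marker of these lists was at 0 in every library of a region. Their part in the members' differences was not tested.

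Within cohort 1, 59 members were called, within cohort 2, 54, and within cohort 3, 47. Leaving out animals 16 and 32 together gave 59 calls. Each cohort's own background was 81.6%, 65.5% and 62.0% of genes.

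Promoter sequence was looked at for members with large called region differences, to set genes that fell beside genes that rose. These are not the largest differences of all. Ntn1, Sema3f, Efnb3, Sema5b and Dcc rose more than Nrp2, and Robo3 fell more than Ephb3, but the limits below left them out. RefSeq promoters in GRCm38.p6 were found for 55 of 64 members, 43 of them with 1 start site. Shown are the bases from 250 upstream of the start to the start, without bases that GENCODE places inside the gene. They are the 3 lowest and 3 highest called members with at least 1 CPM that had an entry, leaving out windows that reached over 50 bases into the gene and 1 chromosome that was not used here. Capitals mark GC boxes (GGGCGG or CCGCCC, so both strands were searched), a motif bound by Sp-family factors.
Ephb6 (lower in NAc, chr6:41605261-41605481, plus strand): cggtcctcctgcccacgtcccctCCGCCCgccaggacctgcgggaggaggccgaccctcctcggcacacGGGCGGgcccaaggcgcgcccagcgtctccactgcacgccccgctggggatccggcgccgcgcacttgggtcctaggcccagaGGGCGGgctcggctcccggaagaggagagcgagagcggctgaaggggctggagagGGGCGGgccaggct
Ephb3 (lower in NAc, chr16:21204545-21204754, plus strand): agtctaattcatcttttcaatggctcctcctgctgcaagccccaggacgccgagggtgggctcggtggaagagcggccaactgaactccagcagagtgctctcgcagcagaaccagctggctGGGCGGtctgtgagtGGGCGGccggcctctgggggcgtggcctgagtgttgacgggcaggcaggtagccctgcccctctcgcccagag
Sema7a (lower in NAc, chr9:57939862-57940111, plus strand): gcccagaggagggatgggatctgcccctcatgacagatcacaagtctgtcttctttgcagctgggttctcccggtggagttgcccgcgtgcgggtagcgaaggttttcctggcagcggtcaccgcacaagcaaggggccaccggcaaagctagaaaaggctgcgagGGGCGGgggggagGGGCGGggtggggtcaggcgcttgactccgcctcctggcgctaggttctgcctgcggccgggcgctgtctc
Plxnb3 (higher in NAc, chrX:73756853-73757089, plus strand): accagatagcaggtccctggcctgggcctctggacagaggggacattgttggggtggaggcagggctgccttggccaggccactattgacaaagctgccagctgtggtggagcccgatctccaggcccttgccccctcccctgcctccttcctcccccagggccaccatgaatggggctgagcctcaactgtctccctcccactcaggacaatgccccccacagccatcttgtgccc
Epha8 (higher in NAc, chr4:136956817-136957066, minus strand): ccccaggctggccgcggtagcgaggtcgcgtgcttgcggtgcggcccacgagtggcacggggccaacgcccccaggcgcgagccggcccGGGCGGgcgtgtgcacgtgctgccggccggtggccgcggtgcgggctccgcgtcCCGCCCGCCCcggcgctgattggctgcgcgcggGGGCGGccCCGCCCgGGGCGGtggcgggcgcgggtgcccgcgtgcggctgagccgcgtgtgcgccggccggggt
Nrp2 (higher in NAc, chr1:62703067-62703284, plus strand): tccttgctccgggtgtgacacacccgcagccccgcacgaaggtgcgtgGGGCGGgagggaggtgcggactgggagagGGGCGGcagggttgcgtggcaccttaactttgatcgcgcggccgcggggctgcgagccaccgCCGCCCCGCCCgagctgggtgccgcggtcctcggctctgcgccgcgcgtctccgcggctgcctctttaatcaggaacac
Ephb6 held 4 GC boxes, Ephb3 and Sema7a 2 each, Plxnb3 0, Epha8 6 and Nrp2 4, with overlapping boxes in Epha8 and Nrp2. None overlapped an E-box (CANNTG), of which the windows held 1, 2, 1, 2, 1 and 0. The Plxnb3 window had 1 CpG and the other 5 had 11 to 46. Over full windows of 250 bases, a GC box was present in 70.4% of 71 member promoters and in 32.7% of all 32851 promoters of the table, and an E-box in 50.7% and 66.2%. A TATA box (TATAAA, both strands) was present in 2.82% of member promoters and 12.4% of all. The half-site TGACG was present in 8.45% and 17.8%. These matches are descriptions of sequence.

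Chromosome complement called a single member in a single region, Sema3b in the NAc. Sema3b encodes a secreted class 3 semaphorin that signals through neuropilins, and the gene lies on chromosome 9 (chr9:107597674-107609229 in GRCm38). Sema3f lies on the same chromosome (chr9:107681500-107710475). In the NAc Sema3b ranged from 0.179 to 1.00 CPM in XX mice (median 0.472, mean 0.518 ± 0.224 SD, n = 23) and from 0.331 to 1.31 CPM in XY mice (median 0.878, mean 0.883 ± 0.262 SD, n = 25). XX libraries were lower, but the groups overlapped. The log2 fold change (XX minus XY) was -0.75 (SE 0.179, edgeR adjusted p = 0.0251), where 1 of 64 members (1.56%) was called against 0.584% of all genes (0.508% lower and 0.0762% higher). The call rests on low counts, 10 to 95 reads per library in XX and 27 to 120 in XY mice.

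The direction was shared by both gonad types and both treatments. Mean Sema3b levels in the NAc were 0.502 CPM in XX controls, 0.542 in stressed XX, 0.512 in XXSry controls and 0.512 in stressed XXSry mice. The XY means were 0.872 in XY- controls, 0.944 in stressed XY-, 0.810 in XY-Sry controls and 0.907 in stressed XY-Sry mice. All 4 XY groups lay above all 4 XX groups. Within cohorts the log2 fold change was -0.75 (adjusted p = 0.306), -0.84 (adjusted p = 1.00) and -1.11 (adjusted p = 0.670) in edgeR fits of cohorts 1, 2 and 3, so the direction held in each and the call in none. A filter that asked for at least 1 CPM in 24 libraries removed the gene. DESeq2 gave -0.76 with an adjusted p of 0.00358. With 1 library left out at a time, the log2 fold change ran from -0.83 to -0.70 and the call was lost without any of 6 libraries. These were NAc libraries of stressed XX animals 25 and 9 (adjusted p = 0.0528 and 0.0503), XXSry control animal 39 (0.0525), XY- control animal 5 (0.0614), XY-Sry control animal 38 (0.0630) and stressed XY-Sry animal 7 (0.0689), each from the edgeR fit without that library.

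In the PFC, the mean of Sema3b was 1.29 ± 0.307 CPM over 23 XX and 1.47 ± 0.444 CPM over 25 XY animals (SD). This difference of -0.29 on the log2 scale (SE 0.108, edgeR adjusted p = 0.239) was not called. Leaving out 1 PFC library at a time gave -0.32 to -0.22, the latter without stressed XY- animal 15, and never a call. The difference between the regions' effects was -0.52 (SE 0.198, edgeR adjusted p = 0.942) and was not called either. Some cell type markers moved with chromosome complement. In the PFC, 2 markers were called, both lower in XX mice. They were Drd2, a dopamine receptor gene of medium spiny neurons (-0.65, SE 0.141, edgeR adjusted p = 0.00785), and Gja1, which encodes an astrocyte gap junction protein (-0.10, SE 0.0262, edgeR adjusted p = 0.0425). Medium spiny neuron markers lay below 0 for 7 of 9 genes in the PFC, summed at 203.3 to 255.6 CPM in XX and 199.5 to 327.4 in XY mice, and astrocyte markers for 7 of 8, at 4515 to 5789 and 4064 to 5716 CPM. In the NAc no marker of any list was called. There, ependymal and choroid plexus markers were below 0 for 5 of 6 genes (median -0.23), summed at 11.7 to 45.6 CPM in XX and 14.2 to 44.6 in XY mice. Blood markers were below 0 for 4 of 4 (-0.24), at 17.8 to 118.3 CPM in XX and 24 to 115.5 in XY mice. Fibroblast markers were below 0 for 6 of 8 (-0.03), at 12.2 to 21.4 and 10.7 to 26.3 CPM, and for 8 of 8 in the PFC (-0.23), at 31.8 to 85.6 and 30.5 to 128.3 CPM. No marker of these lists was at 0 in every library, and their part in the Sema3b result was not tested.

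No other member was called by chromosome. In the PFC, 0 of 63 members were called with edgeR, against 1.12% of all genes, and DESeq2 called 0. An unadjusted p below 0.05 was found for 8 members (12.7%), near the 11.6% of all genes. The smallest p-values belonged to Efna5 (0.09, SE 0.0327, adjusted p = 0.167), the Slit gene Slit2 (0.08, SE 0.0291, adjusted p = 0.227) and Sema3b. XX mice had 33.5 ± 2.03 CPM of Efna5 and XY mice 31.1 ± 2.67 (SD, n = 23 and 25). The members on the X chromosome, Efnb1, Plxna3 and Plxnb3, were not called in either region. Of the partner lists, Ntng1, which encodes the membrane-bound netrin-G1, was called in the PFC, 0.17 higher in XX (SE 0.0401, edgeR adjusted p = 0.0148), and it was the only called gene of the 4 lists in the stress, chromosome and gonad contrasts.

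**Figure D4:**
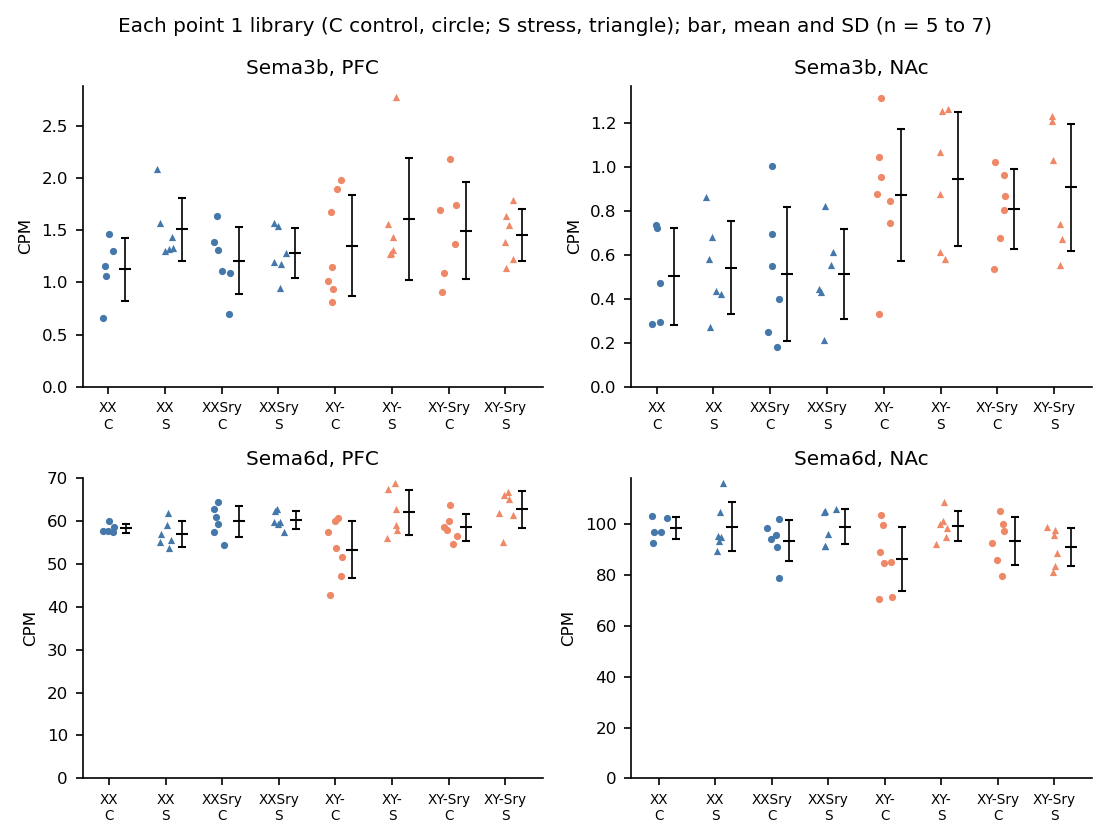
CPM of Sema3b (top) and Sema6d (bottom) in each PFC (left) and NAc (right) library by genotype and treatment, with mean and SD for 5 to 7 animals per group. In the NAc the Sema3b means of all XX groups lie below those of all XY groups, and XY- controls are the lowest Sema6d group in both regions.

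Stress called no member in either region. In the PFC, 0 of 63 members and 0 of 19292 genes (0.0%) were called with edgeR, 10 members (15.9%) had an unadjusted p below 0.05 against 5.73% of all genes, and DESeq2 called 0 members. In the NAc the edgeR count was 0 of 64 (background 0.0%), with 2 members (3.12%) at an unadjusted p below 0.05 against 4.59% of all genes, and DESeq2 called 0. The 3 smallest p-values in the PFC belonged to Sema6d, Plxnd1 and Epha4. Sema6d, a transmembrane semaphorin, had 57.3 ± 4.92 CPM in controls and 60.5 ± 4.25 in stressed mice (SD, n = 24 each), with a log2 difference of 0.10 (SE 0.0283, adjusted p = 0.506). Plxnd1 had 86.8 ± 7.97 and 80.9 ± 7.84 CPM, with a log2 difference of -0.14 (SE 0.0410, adjusted p = 0.517). Epha4 had 377.8 ± 18.2 and 361.7 ± 15.9 CPM, with a log2 difference of -0.07 (SE 0.0226, adjusted p = 0.641). Each of these 3 differences was smaller than the SD of its control group. In the NAc, Plxnb3 (0.20, SE 0.0901), Sema6d (0.09, SE 0.0423) and Efna4 (0.49, SE 0.271) had the smallest p-values, each with an adjusted p of 0.997. Oligodendrocyte markers lay above 0 with stress for 8 of 8 genes in the PFC (median 0.13, summed 706.6 to 1656 CPM in controls and 743.9 to 1691 in stressed mice) and for 8 of 8 in the NAc (0.13, 3584 to 7396 and 4014 to 7816 CPM). No marker was at 0 in every library, none was called, and their part in the values of Sema6d and Plxnb3 was not tested.

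The stress difference that came nearest to a call was that of Sema6d (chr2:124089969-124667770 in GRCm38) in XY- mice. In the PFC, XY- controls ranged from 42.7 to 60.6 CPM (median 53.7, n = 7) and stressed XY- mice from 56.0 to 68.9 CPM (median 61.0, n = 6). All 6 stressed mice lay above the control median and 3 of them above the highest control, so the groups overlapped. The difference on the log2 scale was 0.24 (SE 0.0494, edgeR adjusted p = 0.0606), where 0 of 19292 genes were called. For Sema6d DESeq2 gave 0.24 with an adjusted p of 0.00737. It called this 1 member of 51, and 15 of 11060 genes (0.136%). DESeq2 thus adjusted over fewer genes than the 19292 of edgeR, so the 2 adjusted p-values are not alike. In the NAc the same animals had 70.8 to 103.6 CPM as controls (median 85.0, n = 7) and 92.2 to 109.0 CPM after stress (median 99.2, n = 6), with a log2 difference of 0.22 (SE 0.0742, edgeR adjusted p = 1.00).

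The size differed between cohorts. In cohort 1 the 3 XY- controls had 60.1, 60.6 and 57.4 CPM in the PFC and the 3 stressed XY- mice 59.1, 68.9 and 67.6. In cohort 3 the control pair had 42.7 (animal 16) and 47.2 CPM (animal 19), the lowest Sema6d values of the PFC, and the 3 stressed mice 58.0, 56.0 and 62.9. The label of animal 19 carries the mark NT, which the labels do not explain. Cohort 2 held 2 XY- controls, at 51.6 and 53.7 CPM, and no stressed XY- mouse. The control pair of cohort 3 was lowest in the NAc too, at 71.5 and 70.8 CPM against 92.2 to 101.3 in the stressed mice of that cohort. Without animals 16 and 19 the log2 fold change in XY- mice was 0.15 for PFC libraries (SE 0.0496, edgeR adjusted p = 0.735) and 0.11 for those of the NAc (SE 0.0769, edgeR adjusted p = 0.998). Both values moved by over 1.5 times. Leaving out 1 PFC library at a time gave 0.19 to 0.26, and Sema6d passed the threshold without any of 6 libraries. These were XY- control animals 5 and 13 (edgeR adjusted p = 0.0390 and 0.0419), stressed XY- animal 32 (0.0415), stressed XX animal 17 (0.0479), XXSry control animal 3 (0.0496) and XY-Sry control animal 46 (0.0457).

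Among the members, stress in XY- mice gave the most small p-values of any within-genotype contrast. In the PFC, 16 of 63 members (25.4%) had an unadjusted p below 0.05 against 9.13% of all genes, and 0 were called. Of the 16, 14 were higher and 2 lower after stress. Without the library of animal 16 the count was 8 (12.7% against 5.76% of all genes), and without animals 16 and 19 it was 5 (7.94% against 5.42%). The other genotypes had 2, 3 and 5 members at that level in XX, XXSry and XY-Sry mice. These were 3.17%, 4.76% and 7.94% of members, near the 3.02%, 5.8% and 6.3% of all genes. The smallest p-values there belonged to Plxnd1 (-0.18, SE 0.0805), Plxna2 (0.10, SE 0.0353) and Epha4 (-0.11, SE 0.0424), each with an edgeR adjusted p of at least 0.739. In the NAc, XX, XXSry, XY- and XY-Sry mice had 0, 0, 6 and 5 such members (0.0%, 0.0%, 9.38% and 7.81%), against 3.84%, 2.49%, 4.45% and 6.2% of all genes. The XY- count there became 11 without stressed animal 41 (17.2% against 6.32% of all genes) and 4 without stressed animal 26 (6.25% against 2.9%). Without animals 16 and 19 it was 7 (10.9% against 4.7%). Ephb2 led in XX (-0.29, SE 0.156), Ephb4 in XXSry (-0.23, SE 0.135) and Epha4 in XY-Sry mice (0.24, SE 0.0816). None was called with edgeR in either region, in fits with no call among all genes (0.0%).

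**Figure D5:**
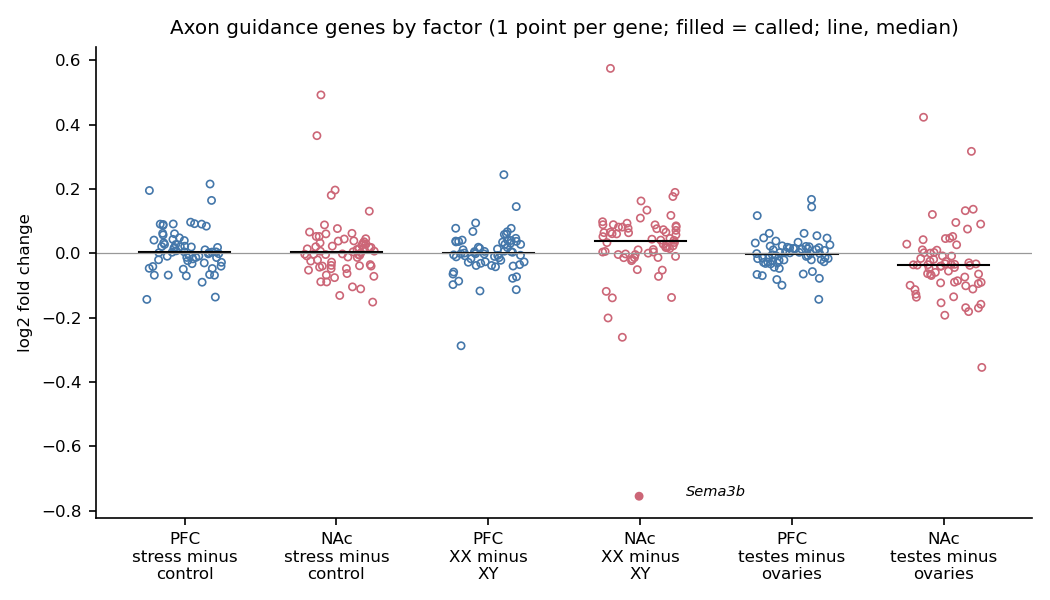
Log2 fold change of each member (points) for stress, chromosomes and gonads in the PFC (63 members) and the NAc (64 members), with the median as a line; filled points were called. Sema3b in the NAc, at -0.75 for XX minus XY, is the only filled point.

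Gonads called no member. In the PFC, 0 of 63 members were called with edgeR against 0.0467% of all genes, 3 (4.76%) had an unadjusted p below 0.05 against 6.74% of all genes, and DESeq2 called 0. In the NAc the count was 0 of 64 against 0.0102%, with 7 (10.9%) at that level against 9.28% of all genes, and 0 called by DESeq2. In the PFC the receptor Ephb4, known from veins, had 4.79 ± 0.632 CPM in mice with ovaries and 4.39 ± 0.610 with testes (SD, n = 24 each), with a log2 difference of -0.14 (testes minus ovaries, SE 0.0526, edgeR adjusted p = 0.531). Sema6d (0.06, SE 0.0254) and Efna1 (0.14, SE 0.0675) followed. In the NAc, Plxna1 had 64.2 ± 11.5 and 56.0 ± 7.15 CPM, with a log2 difference of -0.18 (SE 0.0605, edgeR adjusted p = 0.448). Plxnb1 (-0.13, SE 0.0514) and Epha4 (0.09, SE 0.0389) came next. The Ephb4 and Plxna1 differences were smaller than the SD of the mice with ovaries. Oligodendrocyte precursor markers in the PFC lay below 0 for 6 of 6 genes (median -0.11), summed at 108.5 to 158.0 CPM with ovaries and 119.9 to 156.1 with testes, and 1 of them, Neu4, was called (-0.24, SE 0.0380, edgeR adjusted p = 0.00100). Their part in the members' values was not tested.

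Interactions were tested in the same fits, and none called a member with edgeR. For stress by chromosomes, stress by gonads and chromosomes by gonads, 2, 6 and 4 members of 63 had an unadjusted p below 0.05 in the PFC, and 2, 2 and 2 of 64 in the NAc. These were 3.17%, 9.52% and 6.35% of PFC members, against 3.14%, 6.72% and 4.35% of all genes, and 3.12% of NAc members each time, against 3.02%, 2.94% and 2.84%. DESeq2 called 0 members in each. The smallest p-values in the PFC belonged to Sema6d for stress by chromosomes (-0.16, SE 0.0505), Slit2 for stress by gonads (-0.17, SE 0.0567) and Ephb1 for chromosomes by gonads (-0.16, SE 0.0670). In the NAc they belonged to Dcc (-0.24, SE 0.109), Ntn4 (-0.30, SE 0.113) and Plxna4 (-0.18, SE 0.0850). All had edgeR adjusted p-values of at least 0.623. Whether stress, chromosomes or gonads acted differently in the regions was tested with the animal as a block, and 0 of 64 members were called in each (background 0.0%, 0.0151% and 0.0%), with 0, 3 and 6 (0.0%, 4.69% and 9.38%) at an unadjusted p below 0.05 against 4.97%, 4.79% and 5.25% of all genes, and 0 called by DESeq2.

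The precision behind these counts was uneven. The SE of a member's log2 fold change for stress ran from 0.0194 to 0.242 in the PFC (median 0.0417). Around the fitted group and cohort means, the SD of log2 values had a PFC median of 0.131 and an NAc median of 0.214 over 60 members, against 0.102 and 0.163 over 14712 genes. Plxna2, a receptor of class 6 semaphorins, was the steadiest member of both regions, at 0.0600 and 0.103. Robo3 varied most, at 0.426 and 0.634.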

How the data were processed

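The authors deposited raw counts per gene, in a table for each region that lists the same 19918 Ensembl IDs, and per the labels each of the 96 columns is 1 library of polyadenylated RNA from a tissue punch. The tools named, per the submitters' processing notes, were Trimmomatic 0.38, FastQC 0.11.9, DESeq2, HISAT2 2.2.0 and edgeR, and the build was mm10 (GRCm38), without saying which did what. What counted the reads, with which strand setting and gene models, is not given in the sources used here.

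Symbols and exon lengths came from GENCODE M21, in which 19795 IDs were found and 123 were not. In each region the counts were fitted with edgeR 4.0.16 in R 4.3.3 (robust quasi-likelihood test, filterByExpr by group, TMM scaling), with 8 group means and the cohort as terms. The filter kept 19292 PFC genes and 19684 NAc genes. Contrasts weighted the groups equally. Regions were compared over 19918 genes in 1 fit of all 96 libraries, blocked by animal, since the titles give both regions of an animal the same number. As a check of that pairing, an animal's deviations from its group means correlated between regions with a median of 0.108 over 14712 genes, 26 of 48 values exceeded 0.1, and for 8 animals the own number gave the highest value. P-values were adjusted by Benjamini-Hochberg over all genes of a fit, and adjusted values below 0.05 are called. Because each library of a region comes from another animal, n counts animals. The 121 pairs of libraries of the same group differed beyond sampling noise in each region (lowest chi-square per degree of freedom 6.6 for PFC pairs and 14.3 for NAc pairs).

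CPM was computed here with TMM library sizes over all 96 libraries, and CPM per kb with the union of a gene's exons. The fits were tested on simulated data. DESeq2 1.42.0, other scalings and filters, left-out libraries and within-cohort fits were the alternatives.

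The members, gene lists and markers were chosen with earlier results of these data known. The members named are those called. Where a main contrast called none, the 3 with the smallest p are named, and 1 for interactions and within-genotype contrasts. For the regions, the highest and lowest called members of each family with at least 1 CPM are named, with the highest and lowest levels. Up to 3 called genes of another list are named. Members named outside the rule were chosen after their values were seen.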

Additional observations from a re-analysis of the deposited data

Results flagged for a closer look

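Of 32 groups of 4 to 10 animals examined for a library far from the others, 2 held one, both for Sema3b in the PFC. The design has 8 groups per region, so these 32 are groups of values, and not every member was examined. Stressed XX animal 17 had 2.09 CPM, where the other 5 ranged from 1.30 to 1.57, a gap of 0.656 of the group's range. Stressed XY- animal 15 had 2.78 CPM, where the other 5 ranged from 1.27 to 1.56, a gap of 0.812 of the range. The limit was Dixon's 95% critical value for the group's size, which is set so that chance passes it in about 1 in 20 groups.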

How the results depend on the processing

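The region count of 59 members was also obtained with DESeq2, with RLE scaling, with no replicate block (no pairing by animal) and without each of 5 XX control animals (59 to 59). These left-out fits were not full refits, since they kept the dispersion trend, an estimate of the spread between libraries, from the main fit. No animal of another group was left out singly in the region comparison. The block changed no call among the members. The filter on low counts removed no gene from this comparison, so its fit without that filter is the same fit. Within a region no paired analysis was possible because each animal gives 1 library. Without pairing, Ephb6 had -2.21 and Robo3 -2.09 between regions. Slit2 was not called within cohort 3 (-0.17, edgeR adjusted p = 0.237). The count by chromosomes in the NAc, 1, became 0 within cohorts 1, 2 and 3, each with fewer animals, and 0 under the stricter filter, which removed Sema3b, and it ran from 0 to 1 with 1 library left out. The count for stress in XY- mice in the PFC, 0, became 1 with DESeq2 (of 51 members with an adjusted p). It ran from 0 to 1 with 1 library left out, and the cause was not tested. Within cohort 2, the stress difference of Plxnd1 in the PFC was 0.022 and the gonad difference of Plxnb1 in the NAc was 0.057, opposite in sign to the values over all cohorts, and the cause was not tested. The stressed animals of cohort 2 were 1 XX and 1 XY-Sry mouse. Leaving out animals 16 and 19, or 16 and 32, was chosen after seeing the data. Low counts limit what can be said of Sema3b, Ntn5, Efna4 and Epha1.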
